A study of Mus musculus with 12 samples.

Results

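The mitochondrial respiratory chain was followed in the striatum of SRF mutant and control mice 1 hour after cocaine or saline. Members were taken by gene symbol: the nuclear genes whose names start with Nduf, Uqcr, Cox4 to Cox8 or Atp5, and Sdha, Sdhb, Sdhc, Sdhd, Cyc1 and Cycs. The arrays carried 86 such genes, and 80 of them had a log2 signal above 4 in at least 3 of the 12 arrays, out of 6651 genes that met this filter. Each gene is given by its probe set with the highest mean signal. The 80 genes fell into complex I (33), complex II (4), complex III with cytochrome c (10), complex IV (11, with Ndufa4, whose protein is now placed there), ATP synthase (17) and complex I assembly factors (5).

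The animals were littermate females of 10 to 15 weeks, handled for 5 days in single cages, and the dissected striatum included the nucleus accumbens. There were 4 groups of 3 arrays: mutants given 25 mg/kg cocaine, mutants given saline, controls given 25 mg/kg cocaine and controls given saline. Cocaine is a psychostimulant that blocks dopamine reuptake, and SRF (serum response factor) is a transcription factor of immediate early and cytoskeletal genes. The titles abbreviate the controls' genotype as wt; the nature of the Srf mutation and the cells that carry it are not stated in the labels. Groups were taken from the sample titles, because the description field of the labels names other groups for many arrays and the treatment field gives cocaine for all of them.

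The respiratory chain moves electrons from NADH (complex I) and succinate (complex II) through ubiquinone, complex III and cytochrome c to oxygen at complex IV. The proton gradient it builds drives ATP synthase. Neurons depend on it to restore ion gradients after firing. Most subunits are encoded in the nucleus, and their promoters are known targets of the factors NRF1 and GABP, which the coactivator Ppargc1a (PGC-1α) helps to act. The few subunits encoded by mitochondrial DNA were not on the list of genes that could be tested here.

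Promoter windows from RefSeq (build GRCm38.p6), 250 bases before to 50 bases after each annotated start, were found for 68 of the 80 genes, in 73 windows. The letters GCGCATGCG (NRF1 core) were searched on both strands and stood in 10 of the 73 windows (13.7%), against 1.75% of all 32851 windows in the same table. ACCGGAAG, the core bound by GABP and other ETS factors, stood in 8 windows (11%), against 2.3% of all windows. The YY1 core AAGATGGCG stood in 6 (8.22%, against 1.4%) and the cAMP response element TGACGTCA in 4 (5.48%, against 1.79%). The CArG box, the motif that SRF binds, was in 0 of the 73 windows, against 1.63% of all windows. At least 1 of the motifs other than the CArG box was in 27 windows (37%), against 6.82% of all. A match is only a run of letters, and a window without one says nothing of the factor. The windows of Cycs, Cox6a1 and Ndufs3 are shown, each on the minus strand and written 5′ to 3′ along the gene, with the matches in capitals. Cycs (chr6:50566520-50566819) holds an NRF1 core and a cAMP response element, Cox6a1 (chr5:115348909-115349208) 2 overlapping NRF1 cores on opposite strands, and Ndufs3 (chr2:90904672-90904971) a GABP core.
Cycs: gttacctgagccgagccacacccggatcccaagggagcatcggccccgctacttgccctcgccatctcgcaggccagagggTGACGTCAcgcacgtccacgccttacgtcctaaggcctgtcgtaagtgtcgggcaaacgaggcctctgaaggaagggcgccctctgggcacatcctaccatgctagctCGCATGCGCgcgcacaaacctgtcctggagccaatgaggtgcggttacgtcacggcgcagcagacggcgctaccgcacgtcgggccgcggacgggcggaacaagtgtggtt
Cox6a1: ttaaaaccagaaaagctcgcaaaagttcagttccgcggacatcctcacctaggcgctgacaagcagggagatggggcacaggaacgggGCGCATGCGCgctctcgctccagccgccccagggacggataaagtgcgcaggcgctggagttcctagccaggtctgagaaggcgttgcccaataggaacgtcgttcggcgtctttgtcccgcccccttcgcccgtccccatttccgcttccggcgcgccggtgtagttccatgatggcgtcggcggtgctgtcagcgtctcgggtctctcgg
Ndufs3: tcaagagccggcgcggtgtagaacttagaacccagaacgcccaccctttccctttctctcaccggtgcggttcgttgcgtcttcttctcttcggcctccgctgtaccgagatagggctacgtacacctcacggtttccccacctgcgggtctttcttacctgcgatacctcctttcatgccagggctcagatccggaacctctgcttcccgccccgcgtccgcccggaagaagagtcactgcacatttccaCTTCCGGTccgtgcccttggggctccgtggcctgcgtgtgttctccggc

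Srf itself marked the genotypes. Its probe set read 5.33, 5.46 and 5.49 in cocaine-treated mutants, 5.28, 5.27 and 5.01 in saline-treated mutants, 7.13, 7.20 and 6.97 in cocaine-treated controls, and 7.11, 7.21 and 7.18 in saline-treated controls. All 6 mutant arrays lay below all 6 control arrays (difference of -1.83 in log2, limma adjusted p = 5.7e-09). The mean signal of 6 medium spiny neuron markers lay between 10.09 and 10.24 in mutant arrays and between 9.98 and 10.16 in control arrays, and those of cortical neurons and erythrocytes were all under the filter. By limma's test of mutant over control, which 9.47% of all probe sets passed, Tac1 and Penk were higher and Rgs9 lower among these 6. Ppp1r1b, also of the 6, was lower but did not pass (-0.23, limma adjusted p = 0.0511). At an unadjusted p under 0.05 there were 5 of the 6 (background 23.4%). In the same test 1 of 7 general neuronal markers was higher (Eno2, 0.21). So was 1 of 7 microglial markers (Cd68, 0.72, in a list with a median of -0.0849). Of the astrocyte, oligodendrocyte and endothelial markers, 0 of 9, 0 of 8 and 0 of 3 passed in that comparison, with 1 probe set per gene. The astrocyte gene Gfap was lower after cocaine in mutants (-1.02, limma adjusted p = 0.0303), and a second Gfap probe set was higher in mutants on average (0.80, limma adjusted p = 0.0018) and after saline (1.27, limma adjusted p = 0.00203). Their part in the genotype differences below was not tested. Ttr, a gene of the choroid plexus, exceeded 4 on 4 arrays: 5.90 and 4.75 in cocaine-treated mutants (replicates 1 and 3), 5.57 in saline-treated mutants (replicate 2) and 9.61 in cocaine-treated controls (replicate 3). In dissected tissue, fewer cells of a type and less RNA per cell cannot be told apart.

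Respiratory chain transcripts differed little between mutants and controls, and in limma's test 0 of the 80 genes passed an adjusted p of 0.05. In the same fit 9.47% of all 11102 probe sets passed. The differences, mutant over control averaged over both treatments, ran from -0.13 to 0.10 in log2, with a median of 0.0095 against -0.0088 over all probe sets. The SD of the differences was 0.0562 over the 80 genes and 0.202 over all probe sets, with median standard errors of 0.0578 and 0.0753. The 95% interval lay within 0.25 log2 units of 0 (1.19-fold) for 73 of the 80 genes and within 0.5 (1.41-fold) for all 80, the farthest bound being 0.272. These ranges hold for the chosen probe sets. Of 41 genes with more than 1 tested probe set, 17 had probe sets that differed in sign in this comparison. The widest range between probe sets of 1 gene was 0.285. At an unadjusted p under 0.05 there were 2 genes, both lower in mutants, which is 2.5% of the members beside 23.4% of all probe sets.

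**Figure D1:**
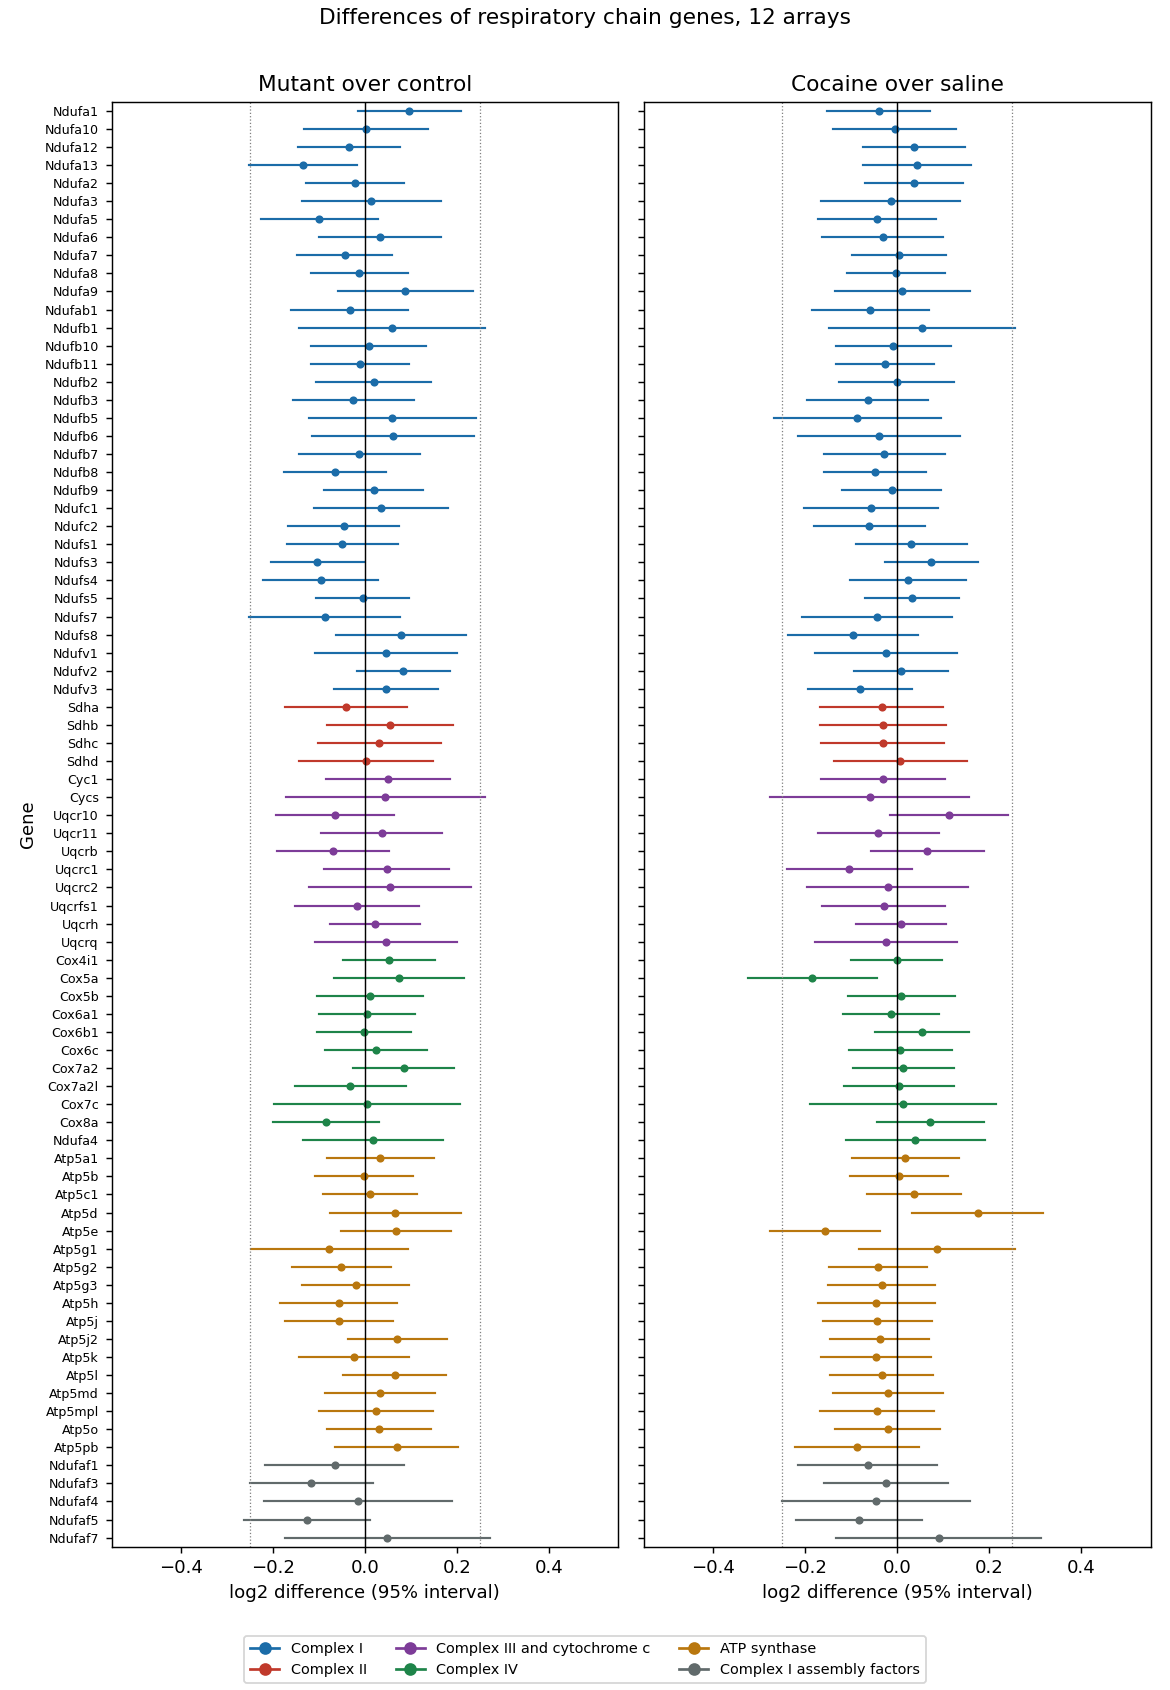
Log2 difference (x axis) of each of the 80 respiratory chain genes (y axis, coloured by complex) for mutant over control (left) and cocaine over saline (right), each averaged over the other factor. Points are limma estimates from 12 arrays, lines their 95% intervals and dotted lines 0.25 log2 units; the points run from -0.13 to 0.10 on the left and from -0.18 to 0.17 on the right.

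Taken within a treatment, the mutants again gave no call. After saline 0 of 80 genes passed (background 2.98%), and 2 had an unadjusted p under 0.05 (background 15.6%). The mutant and control arrays did not overlap for 9 genes, 7 higher and 2 lower in mutants. Of all 11102 probe sets 18.9% did not overlap, 1019 higher and 1080 lower. After cocaine 0 of 80 passed (background 4.19%), and 0 had an unadjusted p under 0.05 (background 17.2%). Here 14 genes did not overlap, 1 higher and 13 lower in mutants. Of all 11102 probe sets 24.6% did not overlap, 1191 higher and 1537 lower. Counted over both directions, all these shares of members lay below those of all probe sets. The share that was lower in mutants after cocaine, taken by itself, lay above that of all probe sets, which was not tested. Overlapping or not, 25 of 80 genes (31.2%) were lower in mutants after saline, against 50.8% of all probe sets. After cocaine 51 of 80 (63.7%) were lower, against 54%. The median differences were 0.0313 and -0.0179, against -0.0027 and -0.0162 over all probe sets. These leans, opposite in direction, were not tested. With 3 arrays a group the intervals were wider: 45 of 80 after saline and 40 of 80 after cocaine lay within 0.25 log2 units of 0, with the farthest bounds at 0.439 and 0.537.

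Cocaine gave no call either. Averaged over both genotypes, 0 of 80 passed limma's test (background 2.31%) and the differences, cocaine over saline, ran from -0.18 to 0.17 with a median of -0.0223, against -0.0071 over all probe sets. At an unadjusted p under 0.05 there were 3 genes, 1 higher and 2 lower (background 11.5%). The interval lay within 0.25 log2 units for 71 genes and within 0.5 for all 80. In mutants alone 0 passed (background 1.92%) and 3 had an unadjusted p under 0.05 (background 10.7%). There 10 genes did not overlap, all lower after cocaine. Of all 11102 probe sets 16.1% did not overlap in mutants, 933 higher and 849 lower. The share of members that was lower thus lay above that of all probe sets, which was not tested. In controls alone 0 passed (background 0.45%) and 0 had an unadjusted p under 0.05 (background 6.34%). In controls 9 genes did not overlap, 8 higher and 1 lower after cocaine. Of all probe sets 11.2% did not overlap in controls, 746 higher and 501 lower. The total share of members was near this background, and the share that was higher lay above it, which was not tested.

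**Figure D2:**
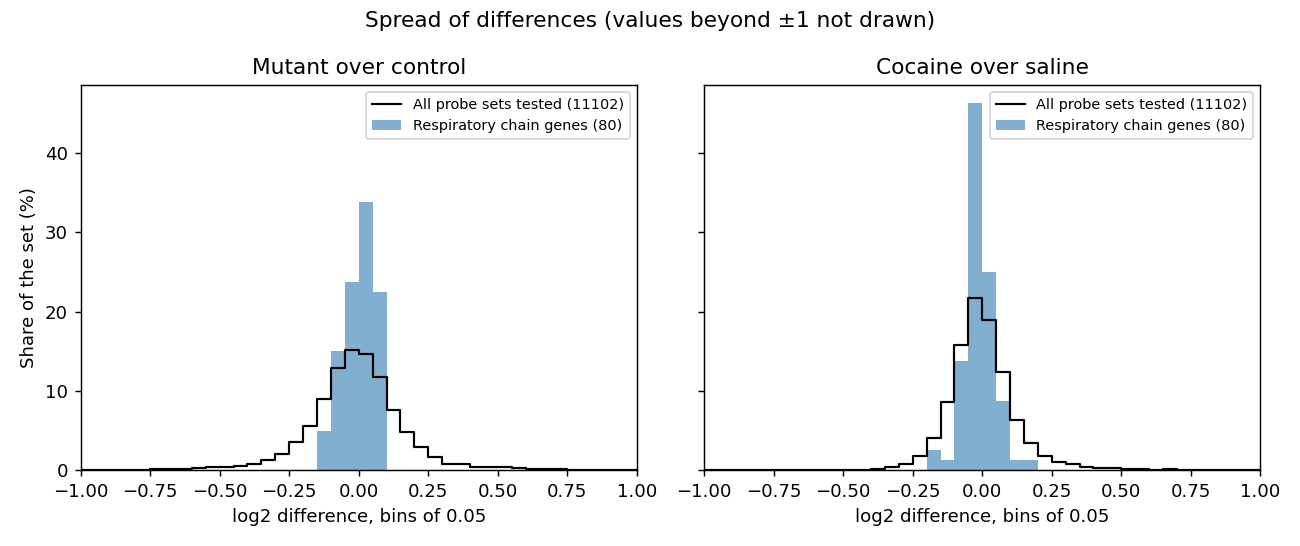
Share of the set (y axis, in percent) by log2 difference (x axis, bins of 0.05) for mutant over control (left) and cocaine over saline (right). Bars are the 80 respiratory chain genes and the black outline all 11102 probe sets tested; the bars lie within 0.25 log2 units of 0 in both panels, while the outline has longer tails.

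Within complex I the largest genotype difference was that of Ndufa13, an accessory subunit also known as GRIM-19. Its log2 signal was 10.09, 9.91 and 9.98 in cocaine-treated mutants, 9.96, 9.86 and 10.00 in saline-treated mutants, 10.11, 10.12 and 10.14 in cocaine-treated controls, and 10.00, 10.12 and 10.12 in saline-treated controls. The cocaine-treated groups did not overlap, and the saline-treated groups touched at 10.00. The difference was -0.13 ± 0.0539 (limma's standard error, 12 arrays), with an adjusted p of 0.147. Ndufs3, a core subunit of the peripheral arm whose promoter is shown above, was the other gene at an unadjusted p under 0.05, and is named after its values were seen. It read 9.20, 9.25 and 9.27 in cocaine-treated mutants, 9.21, 9.21 and 9.15 in saline-treated mutants, 9.36, 9.34 and 9.41 in cocaine-treated controls, and 9.26, 9.28 and 9.26 in saline-treated controls. Within each treatment all 3 mutant arrays lay below all 3 controls, but the gap was small (-0.10 ± 0.0466, limma adjusted p = 0.202). Without the filter on low signals this difference passed, as 1 of 86 genes (limma adjusted p = 0.0267), beside 3.55% of all probe sets in that fit.

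Ndufa1, an accessory subunit of the membrane arm, had the highest mean signal of the complex I probe sets. It read 10.88, 10.85 and 10.81 in cocaine-treated mutants, 10.92, 10.81 and 10.91 in saline-treated mutants, 10.77, 10.67 and 10.79 in cocaine-treated controls, and 10.84, 10.71 and 10.83 in saline-treated controls. It was the 1 member whose mutant arrays all lay above the controls after cocaine, and its averaged difference of 0.10 ± 0.0516 did not pass (limma adjusted p = 0.29). Ndufa5, another accessory subunit, is named after its values were seen. After saline it read 9.02, 8.95 and 9.02 in mutants and 9.28, 9.17 and 9.19 in controls. That difference of -0.22 (limma adjusted p = 0.223) had no match after cocaine, where mutants read 9.17, 9.11 and 8.93 and controls 9.09, 8.94 and 9.12. A second Ndufa5 probe set gave 0.04 after saline. Ndufs8, a core subunit that carries iron-sulfur clusters, had the largest cocaine difference of the complex, -0.10 ± 0.0652 (limma adjusted p = 0.658). Its arrays overlapped between cocaine and saline in both genotypes. The further Ndufs8 probe sets were all lower after cocaine in mutants, and most were higher in controls. The means after cocaine and saline were 7.33 and 7.60 in mutants and 7.35 and 7.38 in controls on a dim probe set. On a brighter probe set they were 9.06 and 9.18 in mutants and 9.15 and 9.04 in controls.

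Complex II is encoded wholly in the nucleus and also works in the citric acid cycle. Sdha, its flavoprotein, read 9.52, 9.44 and 9.37 in cocaine-treated mutants, 9.43, 9.49 and 9.33 in saline-treated mutants, 9.44, 9.43 and 9.41 in cocaine-treated controls, and 9.69, 9.42 and 9.44 in saline-treated controls. Sdhb, the iron-sulfur subunit, read 9.25, 9.37 and 9.21, then 9.25, 9.31 and 9.52, then 9.27, 9.21 and 9.33, then 9.34, 9.17 and 9.25 in the same groups. Both overlapped in every comparison. For Sdhc and Sdhd, the membrane anchors, mutant over control was 0.03 ± 0.0617 and 0.00 ± 0.0671 in log2, and cocaine over saline -0.03 and 0.01. The 4 genotype differences ran from -0.04 to 0.06, and their 95% intervals all lay within 0.192 of 0.

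In complex III, Uqcrb, a small subunit, was both the brightest probe set and the one with the largest genotype difference, -0.07 ± 0.0563 (limma adjusted p = 0.512). Uqcr10, another small subunit, had the largest cocaine difference. It read 8.75, 8.60 and 8.60 in cocaine-treated mutants, 8.61, 8.50 and 8.67 in saline-treated mutants, 8.77, 8.73 and 8.81 in cocaine-treated controls, and 8.47, 8.68 and 8.66 in saline-treated controls. Controls did not overlap and mutants did, and the averaged difference of 0.11 ± 0.0589 did not pass (limma adjusted p = 0.515), while its other 2 probe sets gave 0.02 and 0.08. Cytochrome c is the mobile carrier encoded by Cycs. Its other 2 probe sets had group SDs of 0.0461 to 0.148 and of 0.074 to 0.212. The chosen probe set varied more between arrays than most members (group SDs of 0.082 to 0.271). It read 9.82, 9.73 and 10.07 in cocaine-treated mutants, 9.64, 10.10 and 10.11 in saline-treated mutants, 10.04, 9.63 and 9.87 in cocaine-treated controls, and 9.94, 9.94 and 9.80 in saline-treated controls. Its groups overlapped in every comparison (mutant over control 0.04 ± 0.1, cocaine over saline -0.06 ± 0.1). Cyc1, the haem subunit cytochrome c1, differed by 0.05 ± 0.0621 for genotype and -0.03 ± 0.0621 for cocaine.

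Complex IV held the largest cocaine difference of the whole chain. Cox5a, a nuclear subunit of the oxidase, read 10.35, 10.28 and 10.40 in cocaine-treated mutants, 10.47, 10.74 and 10.66 in saline-treated mutants, 10.49, 10.27 and 10.33 in cocaine-treated controls, and 10.52, 10.47 and 10.37 in saline-treated controls. Mutants did not overlap and controls did. The averaged difference was -0.18 ± 0.0647 (limma adjusted p = 0.238) and that in mutants -0.28 ± 0.0915 (limma adjusted p = 0.208). Its other 2 probe sets gave averaged differences of -0.08 and -0.01, and the mean over its probe sets gave -0.09. Cox7a2 had the largest genotype difference, 0.08 ± 0.0507 (limma adjusted p = 0.354).

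Several subunits of complex IV come in pairs of a general and a tissue-restricted form. Cox6a1, the general form with the brightest probe set, read 11.96, 11.96 and 11.91 in cocaine-treated mutants, 11.97, 11.94 and 12.02 in saline-treated mutants, 11.91, 11.97 and 11.999 in cocaine-treated controls, and 12.01, 11.91 and 11.94 in saline-treated controls. The groups overlapped throughout. The genotype differences of the general forms Cox4i1, Cox6a1, Cox6b1, Cox7a2 and Cox8a were 0.05, 0.00, -0.00, 0.08 and -0.08. The restricted forms did not pass the filter: Cox4i2 lay between 2.10 and 2.14 over the 12 arrays, Cox6a2 between 3.12 and 3.69, Cox6b2 between 2.92 and 3.23, Cox7a1 between 2.93 and 3.09, Cox8b between 2.397 and 2.66, and Cox8c between 1.68 and 1.73. These are the 6 member genes left untested, and levels this low are near background and are not set against those of other probe sets.

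Of the 17 ATP synthase genes, 12 were lower and 5 higher after cocaine, averaged over both genotypes. In mutants 15 of 17 (88.2%) were lower, against 53.7% of all probe sets. In controls 5 of 17 (29.4%) were lower, against 49%. These leans were not tested. The 2 genes with the largest averaged differences, 1 in each direction, follow. Atp5d, the delta subunit of the central stalk, read 10.10, 10.21 and 9.91 in cocaine-treated mutants, 9.93, 9.79 and 9.81 in saline-treated mutants, 9.84, 9.95 and 10.06 in cocaine-treated controls, and 9.90, 9.80 and 9.79 in saline-treated controls. Some arrays overlapped in both genotypes (difference 0.17 ± 0.0655, limma adjusted p = 0.287), and its other probe set gave 0.14. Atp5e, the epsilon subunit of the same stalk, read 9.08, 9.02 and 9.03 in cocaine-treated mutants, 9.24, 9.22 and 9.32 in saline-treated mutants, 9.08, 8.89 and 9.14 in cocaine-treated controls, and 9.09, 9.14 and 9.16 in saline-treated controls. Mutants did not overlap, controls did, and the averaged difference of -0.16 ± 0.0554 did not pass (limma adjusted p = 0.242). Both were at an unadjusted p under 0.05, and Atp5e was named after that was seen.

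The catalytic beta subunit, Atp5b, had the highest mean signal of the ATP synthase probe sets. It read 11.14, 11.24 and 11.17 in cocaine-treated mutants, 11.23, 11.26 and 11.21 in saline-treated mutants, 11.27, 11.24 and 11.21 in cocaine-treated controls, and 11.24, 11.11 and 11.19 in saline-treated controls. Both averaged differences were 0.00 in size (standard error 0.0489). Atp5g1, of the membrane ring that turns with proton flow, had the largest genotype difference at -0.08 ± 0.0784, and 1 cocaine-treated control read 9.29 where the other arrays lay between 8.78 and 9.06. Without the 4 arrays with raised Ttr its difference was 0.0039. Atp5j2, the f subunit of the membrane part, was also named after its values were seen, and read higher in all 3 saline-treated mutants (10.51, 10.51 and 10.45) than in saline-treated controls (10.29, 10.35 and 10.38). That difference of 0.15 did not pass (limma adjusted p = 0.319), nor did the 0.22 of its second probe set (limma adjusted p = 0.153).

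The assembly factors, which build complex I and are not part of it, had larger standard errors than most subunits (median 0.0696, against 0.0578 over all members). Ndufaf5, an enzyme that hydroxylates a core subunit, had the largest genotype difference, -0.12 ± 0.0631 (limma adjusted p = 0.259). Ndufaf3 followed at -0.12 ± 0.062 (limma adjusted p = 0.29). Ndufaf7, a methyltransferase for another core subunit, read 6.20, 6.05 and 6.27 in cocaine-treated mutants, 5.65, 6.11 and 5.97 in saline-treated mutants, 5.94, 5.69 and 6.22 in cocaine-treated controls, and 6.21, 5.89 and 5.998 in saline-treated controls. Its groups overlapped, and it set the widest intervals among the members.

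**Figure D3:**
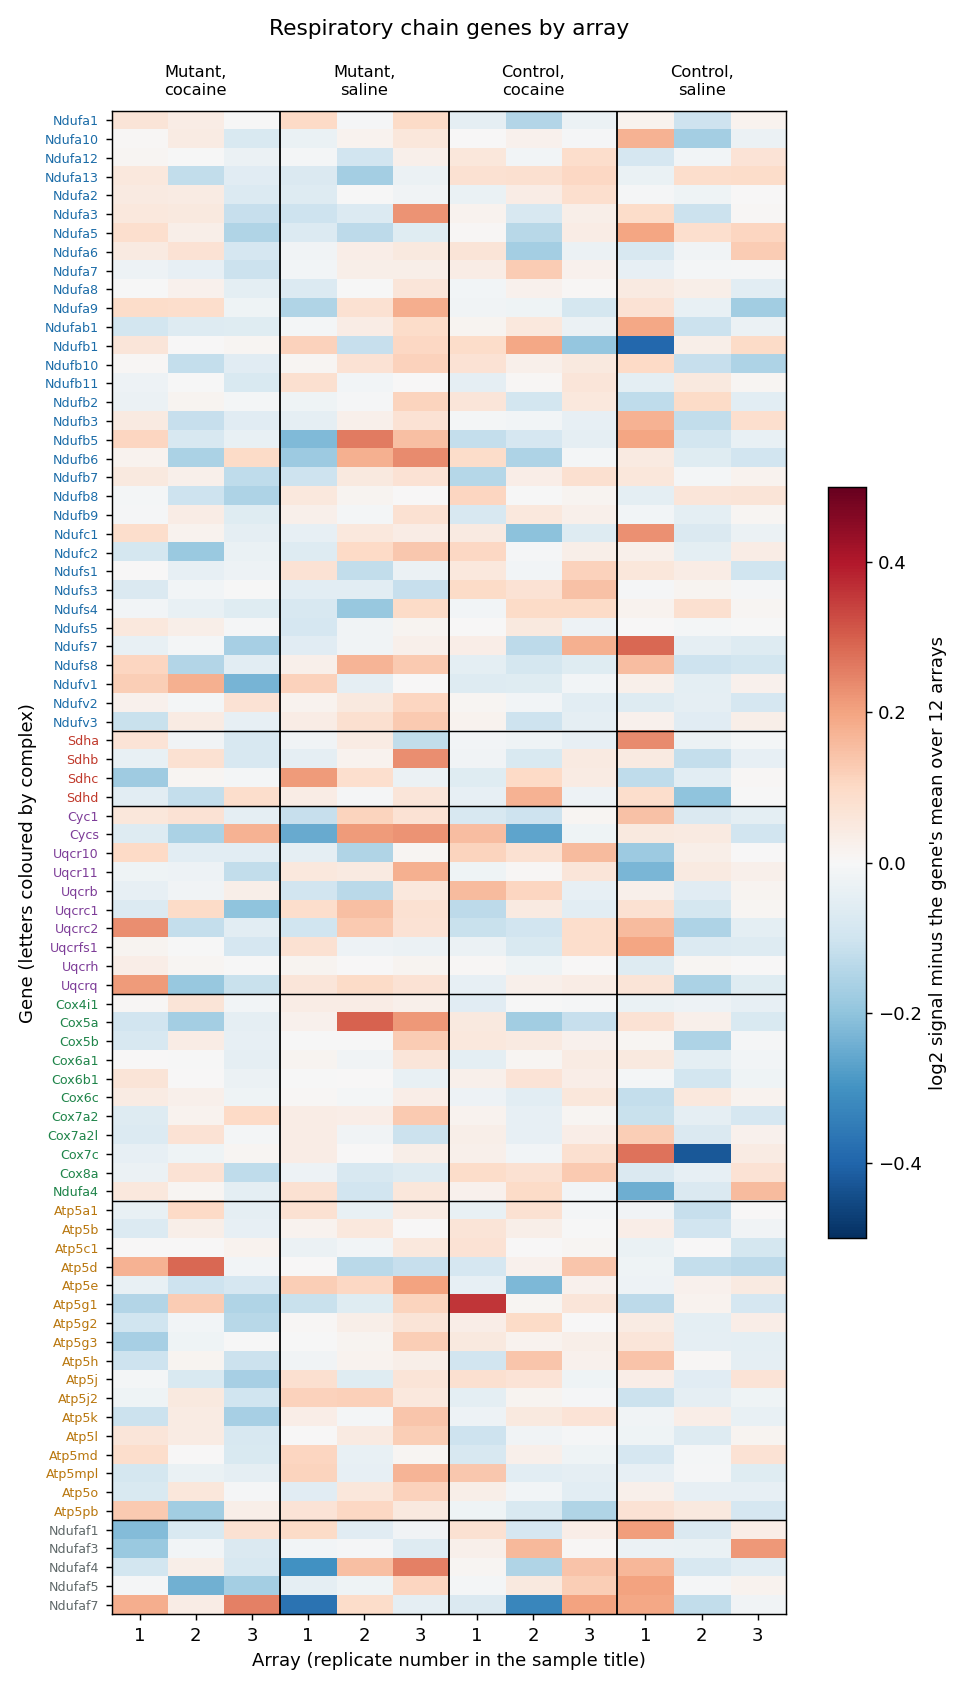
Log2 signal of each of the 80 genes (rows, ordered by complex) minus that gene's mean over the 12 arrays, in every array (columns, by group and replicate number). Red is above and blue below the gene's mean; shading follows single arrays, such as mutant cocaine replicate 3 (12 genes above their mean) and mutant saline replicate 3 (65 above), rather than groups.

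Arrays of 1 group differed from each other about as much as the groups did. The mean deviation over the 80 genes was -0.0021, -0.0101 and -0.0484 in cocaine-treated mutants, -0.0115, 0.0149 and 0.0627 in saline-treated mutants, 0.0100, -0.0126 and 0.0205 in cocaine-treated controls, and 0.0288, -0.0436 and -0.0086 in saline-treated controls. Replicate 3 was the lowest of all arrays in the cocaine-treated mutants and the highest of all in the saline-treated mutants. Group means were -0.0202 ± 0.0247, 0.022 ± 0.0376, 0.0060 ± 0.0169 and -0.0078 ± 0.0362 in the same order (SD, n = 3). After the group means were taken out, the mean correlation between pairs of genes over the 12 arrays was 0.0907 among members and 0.0039 among all probe sets. It was 0.128 in complex I and 0.107 in ATP synthase. These pairs share arrays and normalisation, so the correlations are descriptions.

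**Figure D4:**
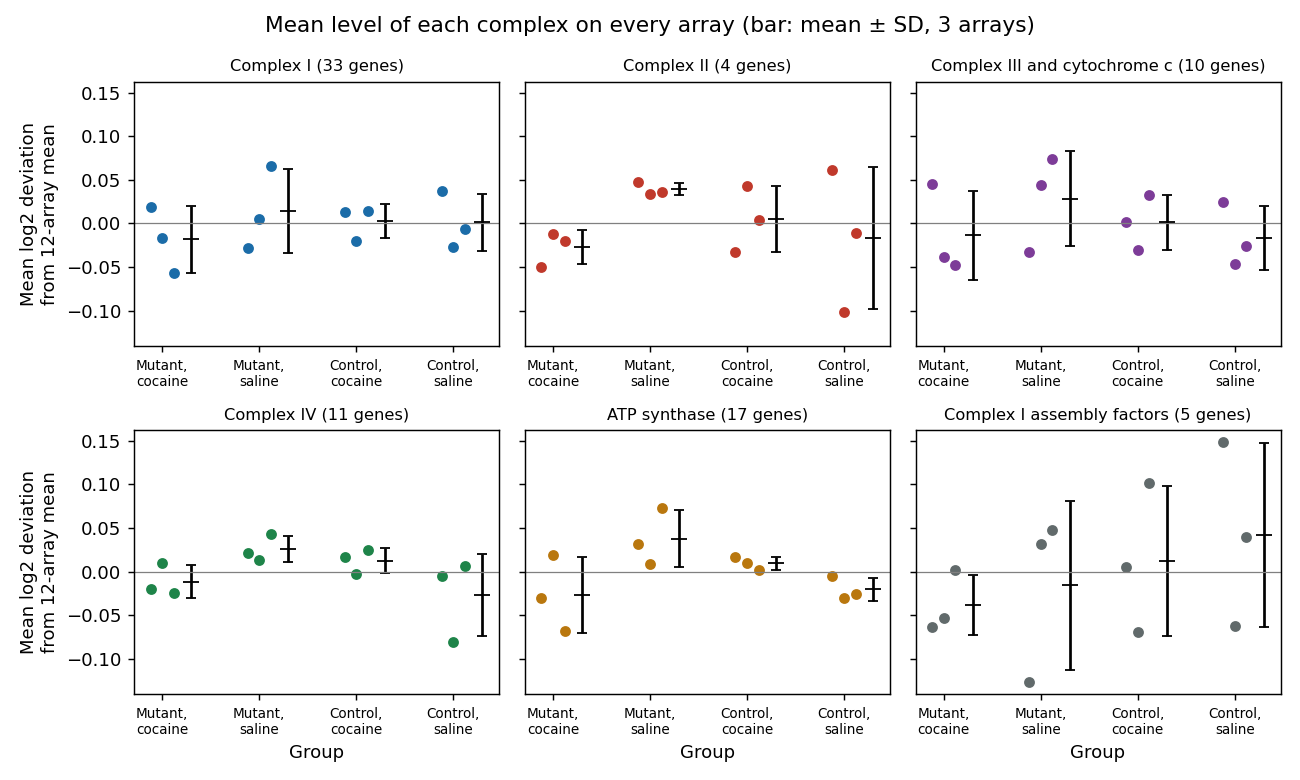
Mean deviation (y axis, log2 units) from each gene's 12-array mean, by complex (panels) and group (x axis); points are arrays and bars the mean ± SD of 3 arrays. Cocaine-treated and saline-treated mutants overlap in complex I, complex III, ATP synthase and the assembly factors and not in complexes II and IV, where all values lie between -0.05 and 0.05 for these groups.

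The response to cocaine was then compared between genotypes, as the response of mutants minus that of controls. Again 0 of 80 genes passed (background 0.0721%), and 0 had an unadjusted p under 0.05 (background 4.98%). The values ran from -0.25 for Atp5g1 to 0.35 for Ndufaf7. They were below 0 for 62 of the 80 genes (77.5%), against 52.4% of all probe sets, with medians of -0.0603 and -0.0082. The 80 genes share the same arrays, so they are not separate observations, and this lean was not tested. The median was also below 0 for 42 cytoplasmic ribosomal (-0.0709), 74 mitochondrial ribosomal (-0.0311) and 17 antioxidant and quality control genes (-0.0465). The same held for 27 assembly factors outside the naming rule (-0.0286), 11 carriers, porins and kinases (-0.021) and 3 sodium pump subunits (-0.143). It was above 0 for 16 biogenesis regulators (0.076), 16 pyruvate dehydrogenase and citric acid cycle genes (0.0311) and 15 vacuolar ATPase subunits (0.0391). By complex, 15 of 17 ATP synthase genes, 10 of 11 of complex IV, 8 of 10 of complex III, 3 of 4 of complex II, 22 of 33 of complex I and 4 of 5 assembly factors were below 0. The count was 53 without replicate 3 of either mutant group and 69 when replicate 1 of the cocaine-treated mutants was left out, the extremes over all 12 fits that omit an array. After quantile normalisation it was 50 of 80 (62.5%), against 51% of all probe sets, with a median of -0.0404. The median standard error was 0.116, and 10 of 80 intervals lay within 0.25 log2 units of 0.

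Ppargc1a, the coactivator named above, was higher in mutants. It read 6.35, 6.03 and 6.15 in cocaine-treated mutants, 6.04, 6.05 and 5.92 in saline-treated mutants, 5.61, 5.34 and 5.45 in cocaine-treated controls, and 5.25, 5.35 and 5.54 in saline-treated controls. All 6 mutant arrays lay above all 6 controls, by 0.67 ± 0.0757 (limma adjusted p = 0.000115), and the difference passed after saline (0.62) and after cocaine (0.71) alone. Its other 4 probe sets gave 0.21 to 0.80, and 3 of them passed. The difference between cocaine and saline did not pass (0.13, limma adjusted p = 0.567). Of 16 biogenesis regulators tested it was the 1 that passed, beside 9.47% of all probe sets on average over both treatments. It was also the 1 of 16 within each treatment, beside 2.98% after saline and 4.19% after cocaine. Shares that rest on 1 gene say little of the list as a whole. Esrra, a nuclear receptor it coactivates, differed by 0.17 ± 0.0602 (limma adjusted p = 0.105), Gabpa, the DNA-binding subunit of GABP, by -0.06 and Tfam, which packages and transcribes mitochondrial DNA, by 0.04.

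Ckmt1, the mitochondrial creatine kinase, was the 1 of 11 carriers, porins and kinases that passed, a share near the 9.47% of all probe sets. It read 7.80, 7.70 and 7.92 in cocaine-treated mutants, 8.04, 7.96 and 8.13 in saline-treated mutants, 7.55, 7.44 and 7.45 in cocaine-treated controls, and 7.83, 7.72 and 7.61 in saline-treated controls. Mutants lay above controls within each treatment, by 0.33 ± 0.0615 on average (limma adjusted p = 0.00496), and its other probe set gave 0.46 (limma adjusted p = 0.00464). Without the 4 arrays with raised Ttr the difference was 0.29 and did not pass (limma adjusted p = 0.158). Its cocaine difference of -0.24 did not pass (limma adjusted p = 0.0755).

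The other mitochondrial groups gave few calls. Of 74 mitochondrial ribosomal protein genes, 2 were lower in mutants (background 9.47%): Mrps25 by -0.33 ± 0.0706 (limma adjusted p = 0.0112) and Mrpl38 by -0.24 ± 0.0657 (limma adjusted p = 0.0352). A second Mrps25 probe set gave 0.03, the mean of both did not pass, and neither did Mrps25 without the 4 arrays with raised Ttr (limma adjusted p = 0.106). Mrpl38 lost its call without replicate 1 or 2 of the cocaine-treated mutants, replicate 3 of the saline-treated mutants, replicate 2 or 3 of the cocaine-treated controls or replicate 1 or 3 of the saline-treated controls (adjusted p up to 0.084). Of 27 assembly factors outside the naming rule 1 passed after cocaine (background 4.19%): Coa5, needed to build complex IV, was lower in mutants by -0.37 ± 0.0926 (limma adjusted p = 0.0435). That call was lost in 11 of 20 alternatives, among them without replicate 1 or 2 of either mutant group, any replicate of the cocaine-treated controls or replicate 2 of the saline-treated controls (adjusted p up to 0.154). In limma's test 0 of 16 pyruvate dehydrogenase and citric acid cycle genes and 0 of 17 antioxidant and quality control genes passed in any of the 7 comparisons. At an unadjusted p under 0.05 the first list had 1 gene, for mutant over control averaged (background 23.4%), and the second 1 gene, for mutant over control after saline (background 15.6%).

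**Figure D5:**
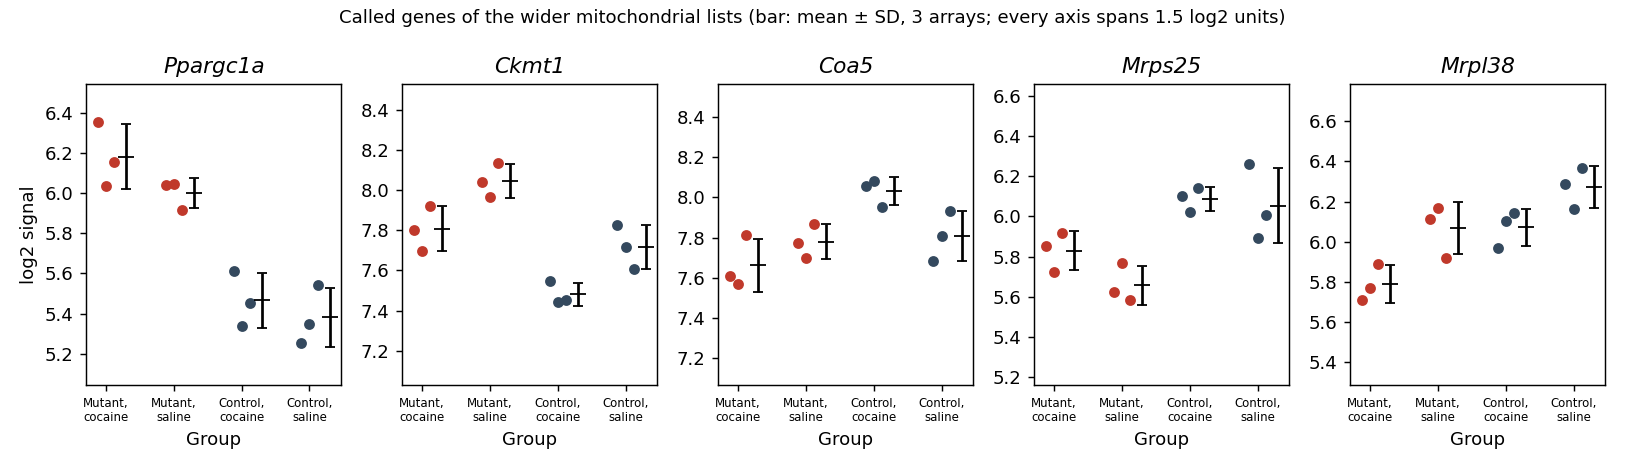
Log2 signal (y axis, every panel spanning 1.5 log2 units) of the mitochondrial genes outside the chain that passed limma's test in a genotype comparison, by group (x axis); points are arrays and bars the mean ± SD of 3 arrays. Ppargc1a and Ckmt1 are higher in mutants within each treatment, and Mrps25 is lower; Coa5 and Mrpl38 separate after cocaine and overlap after saline.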

How the data were processed

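The deposited table holds log2 signals, 1 per probe set and array, which, per the submitters' processing notes, the authors made with GCRMA under R 2.4.1. No source used here states the log base or the options of GCRMA, and log2 was taken from the range of the values. Array medians of 3.75 to 3.78 show that arrays had been brought to 1 level, which hides any change common to most genes. Signals near background are compressed by GCRMA.

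Of 22690 probe sets, 64 controls were left out and 11102 had a signal above 4 in at least 3 of 12 arrays. The platform annotation gave 1 symbol for 20393, several for 691 and none for 1606. Of 160 member probe sets 139 passed the filter; the 59 not chosen gave 0 calls in any comparison. Another 8 with several symbols were not used.

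All 7 contrasts came from 1 fit in R 4.3.3 with limma 3.58.1, from the deposited log2 signals (a mean per group, 8 residual and 4.71 prior degrees of freedom). P-values were adjusted by Benjamini-Hochberg over 11102 probe sets, two-sided, and a gene was called under 0.05. The procedure was tested on simulated data. P-values measure the spread between samples the titles call biological replicates. The number of arrays limits the precision. Comparisons that share a group share its arrays.

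The genes named are, per complex, the one with the highest mean signal (used only to choose, since levels of different probe sets are not comparable), the largest differences for genotype and for cocaine, all complex II genes, cytochromes c and c1, the paired complex IV isoforms, and called genes of wider lists. Ndufs3, Ndufa5, Atp5e, Atp5j2, the uncalled regulators and the marker Ppp1r1b were named after their values were seen. The members, lists and promoter motifs were chosen with earlier results of these data known. Alternatives changed the filter, normalisation, weighting, choice of probe sets, arrays and block.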

Additional observations from a re-analysis of the deposited data

How the results depend on the processing

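The count of respiratory chain genes that passed was 0 in 143 of 144 alternative fits over the 7 comparisons. The exception was mutant over control, averaged over both treatments, without a filter on low signals, where 1 of 86 genes passed (Ndufs3, limma adjusted p = 0.0267) and 9 had an unadjusted p under 0.05, beside 3.55% and 14.5% of all 22626 probe sets in that fit. Leaving out each array in turn gave 0 to 0 genes in all 7 comparisons. The median difference then ran from -0.006 to 0.0152 for mutant over control, from -0.0354 to -0.0073 for cocaine over saline, and from -0.0719 to -0.0384 for the difference in response. Of 60 alternative medians, 0 moved beyond the replicate spread. That spread was the pooled SD of array means within groups (0.0169 to 0.0376 in single groups), doubled for the difference in response. The genotype and cocaine medians were themselves smaller than it, so this count cannot show that they or their signs held. Single genes were followed for the members with the largest genotype or cocaine difference in each complex, in 240 values. Ndufs3 and other members named for other reasons were not among them. Of these 240 values, 0 were called and 3 moved by over 1 standard error. These were Cox5a for cocaine with the mean of its probe sets (-0.0912), and Sdhb (0.129) and Atp5g1 (0.0039) for genotype without the 4 arrays with Ttr above 4. That setting, the alternatives for called genes outside the chain, and those for the difference in response were added after the data had been seen. It leaves 1 cocaine-treated mutant, assumed to vary like the other groups, and 0 of 80 genes passed in each comparison (smallest limma adjusted p = 0.349).

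Ppargc1a kept its call in all 20 alternatives (0.484 to 0.707), and Ckmt1 lost it in 1, Mrps25 in 2, Mrpl38 in 10 and Coa5 in 11 of 20. Same-numbered arrays of different groups did not deviate together: of 18 pairs 1 had a correlation over 0.1, the range being -0.145 to 0.116. A fit with the replicate number as a block gave 0 of 80 genes in each comparison. Every group holds 1 array of each number, so this block cannot change the differences. The medians therefore stayed at 0.0095 for genotype, -0.0223 for cocaine and -0.0603 for the difference in response. Groups of 3 arrays limit what can be seen: intervals within a single treatment or genotype, and for the difference in response, reach past 0.25 log2 units for many members, and a p that misses the threshold does not show that values did not differ.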
